A study of Rattus norvegicus with 93 samples.

Results

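The 6 genes described here encode the transporters and receptors of glycine as a neurotransmitter: Slc6a5, Slc6a9, Glra1, Glra2, Glra3 and Glrb. They were taken by symbol from a table of 38354 genes and were all present. The table comes from a study titled as a genomic analysis of avoidance learning in addiction, which sequenced polyA RNA of a brainstem region, the rostromedial tegmental nucleus or RMTg, taken from rats of an outbred stock. The labels name 93 samples, all in 1 group, with no treatment, behaviour, age, sex or genotype given, and 92 of them have a column. A sample is taken here as 1 animal, since the labels give no other relation between samples. The levels below rest on 49 of the 92 libraries, those in which no single feature took an unusual share of the counts: Nif3l1 had to hold under 20% of a library's counts, and LOC120093067 with Zfp532 under 10%.

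Glycine released by inhibitory neurons opens a chloride channel, the glycine receptor, which is built of alpha subunits that bind glycine and a beta subunit that ties the channel to the scaffold protein gephyrin under the synapse. Slc6a5 encodes GlyT2, the transporter that loads glycine back into glycinergic nerve endings and is a marker of those neurons. Slc6a9 encodes GlyT1, found mainly on glia, which clears glycine from the cleft and also sets the glycine available as co-agonist of NMDA receptors. Glra1 encodes the main adult alpha subunit of brainstem and spinal cord, Glra2 a subunit best known from the immature nervous system, Glra3 a further alpha subunit, and Glrb the beta subunit. The RMTg is an inhibitory nucleus that projects to midbrain dopamine neurons, and its projection neurons are known chiefly as GABA neurons.

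In the RefSeq build GRCr8, Slc6a5 lies on chromosome 1 from 108767245 to 108833173, Slc6a9 on chromosome 5 from 136660022 to 136694173, Glra1 on chromosome 10 from 40128284 to 40228612, Glra2 on chromosome X from 32651931 to 32873277, Glra3 on chromosome 16 from 39210534 to 39857332 and Glrb on chromosome 2 from 168432736 to 168505614. The deposited table names no build, but gives each of the 6 genes a position equal to 1 end of that span. A RefSeq promoter window, 250 bases before to 50 after an annotated start, was found for 5 of the 6. The annotated starts used for Slc6a5, Glra2 and Glra3 lie 14308, 256 and 326 bases inside the annotated gene, and their windows hold no base upstream of it. The other pair, Slc6a9 and Glrb, are shown because their windows reach upstream of the whole annotated gene, and they are the glial transporter and the beta subunit on which the later comparisons turn. The printed parts hold no base of the annotated genes. They cover chr5:136659826-136660021 on the plus strand and chr2:168505615-168505864 on the minus strand, read 5′ to 3′ towards the gene, with capitals marking the GC box letters GGGCGG on either strand.
Slc6a9: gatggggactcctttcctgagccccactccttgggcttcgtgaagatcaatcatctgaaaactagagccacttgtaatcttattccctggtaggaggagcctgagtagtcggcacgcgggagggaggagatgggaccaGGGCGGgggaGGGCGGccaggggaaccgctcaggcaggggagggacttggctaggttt
Glrb: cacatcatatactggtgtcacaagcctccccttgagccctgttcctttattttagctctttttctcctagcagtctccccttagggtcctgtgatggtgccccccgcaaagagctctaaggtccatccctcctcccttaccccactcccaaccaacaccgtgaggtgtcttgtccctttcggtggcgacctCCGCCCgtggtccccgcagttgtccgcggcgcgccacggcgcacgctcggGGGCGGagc

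Each of the printed stretches held the GC box letters 2 times and none of the other letters searched, which were the CCAAT box (letters CCAAT), the TATA box (TATAAA), the cAMP response element (TGACGTCA), the AP-1 site (TGAGTCA) and the core of the NRF1 site (TGCGCA). Both strands were searched, and no 2 of these matches overlapped. Over the full 300 bases, GGGCGG occurred 3 times at Glrb, 2 times at Slc6a9, 1 time each at Glra2 and Glra3 and not at Slc6a5. It was found in 33.1% of all 33469 windows of that length. The Glrb window was the richest of the 5 in G and C, at 65% with 28 CpG pairs, against a median of 51.7% and 7 pairs over all windows. TATAAA was found at Glra2 alone of the 5, and in 14.2% of all windows. These are letter matches and no binding was measured.

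The 49 libraries held 9.55 to 50.2 M estimated counts (M, 1000000 counts; median 19.2 M) and came from identifier series B, C, D, E and F with 7, 16, 12, 7 and 7 libraries. A series is a run of neighbouring sample identifiers, and the labels do not say what it stands for. Markers of the inhibitory RMTg were present, with medians of 91.3 counts per 1000000 (CPM) for Foxp1, 56.8 CPM for Gata3 and 137 CPM for Pnoc, and all 10 genes of that list passed the filter on low values. Markers of neighbouring regions were present too: Th, the rate-limiting enzyme of dopamine synthesis, ranged from 46.5 to 1067 CPM and Tph2, which makes serotonin, from 92.1 to 391 CPM. None of the 4 noradrenergic markers passed the filter. Of the other marker lists, 2 of 5 cerebellar, 1 of 4 cholinergic, 2 of 5 choroid plexus and ependymal and 3 of 12 hindbrain position genes passed. The 5 libraries of lowest correlation with the median library lay at 0.960 to 0.979, against a median of 0.990 of all 49. They are libraries 45, 62 and 63 of series C and 67 and 71 of series D, numbered by identifier. No gap set these 5 apart, since the next, library 44 of series C, lay at 0.980.

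Transcript length was not removed from these values, so levels are compared between libraries and never between genes. All 6 genes were detected in every one of the 49 libraries. Slc6a5 ranged from 0.29 to 4.93 CPM with a median of 1.51, a mean of 1.59 and an SD of 0.90 (n = 49). Its median library held 30 counts and its lowest 3. The lowest level, 0.290 CPM, rested on 6 counts (95% Poisson interval 0.106 to 0.630 CPM) and the highest, 4.93 CPM, on 57 (3.73 to 6.38), so the extremes differed beyond counting error, which is all these intervals cover. Its coefficient of variation was 56.8%, against 19.1% from counting alone.

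Over the 49 libraries Slc6a9 was the steadiest of the 6. It ranged from 43.7 to 97.2 CPM with a median of 66.7 and a mean of 66.01 ± 11.5 CPM (SD, n = 49). Its coefficient of variation was 17.4%, against 2.87% from counting. After the trend of spread on mean level was removed, 57.7% of the 18749 genes tested had as low a spread or lower, near the middle of all genes. The other 5 genes lay between 82.8% for Glra2 and 91.6% for Glrb. Without the 5 libraries these shares were 90.9% for Slc6a5, 88.3% for Glra1, 69.9% for Slc6a9, 65.2% for Glrb, 60.9% for Glra2 and 44.1% for Glra3, so the rank of Slc6a5 and Glra1 stayed high and that of Glra3 fell below the middle of all genes. The SD of log2 level was then 0.176 for Glra3, 0.203 for Glrb and 0.218 for Slc6a9, so Slc6a9 was no longer the steadiest.

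Of the alpha subunits, Glra1 ranged from 11.95 to 46.6 CPM with a median of 20.6 (mean 21.9 ± 6.56, SD, n = 49). The 2 highest libraries, at 46.6 and 39.04 CPM, stood above the third, which lay at 31.1 CPM. Glra2 ranged from 3.18 to 19.8 CPM with a median of 10.7 (mean 10.6 ± 2.81). Glra3 ranged from 19.97 to 100.6 CPM with a median of 56.3 (mean 57.7 ± 12.5). Its lower and upper quartiles were 52.9 and 63.8 CPM, so the wide range of Glra3 came from a few libraries at either end. The beta subunit Glrb ranged from 63.9 to 272 CPM with a median of 198 (mean 194 ± 40.8), and 3 libraries, at 63.9, 79.4 and 97.8 CPM, lay far below the other 46. Those 3 are among the 5 least correlated libraries.

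**Figure D1:**
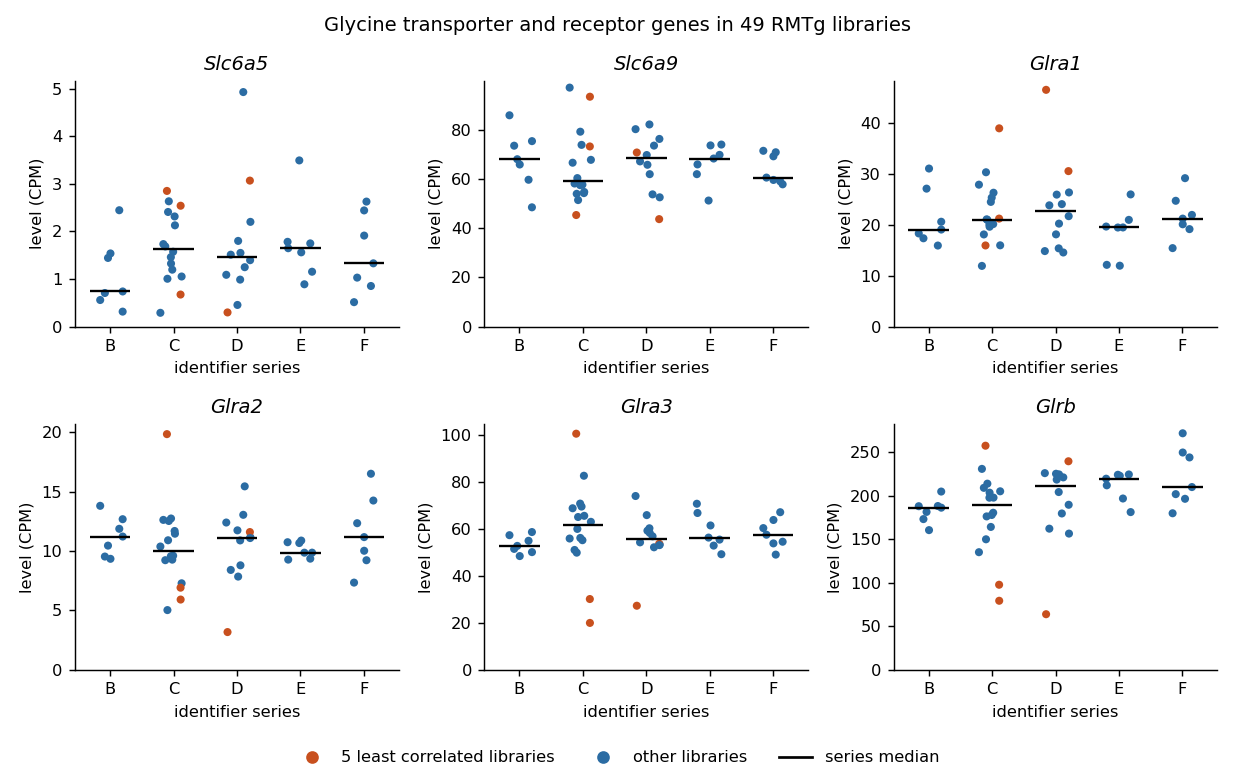
Level of each gene in CPM (vertical axes, from 0) in the 49 libraries, by identifier series B to F; each point is 1 library, black bars are series medians and orange points are the 5 least correlated libraries. Series medians of Glrb lay between 187 and 220 CPM, while 3 libraries of series C and D lay at 63.9, 79.4 and 97.8 CPM.

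No difference between identifier series passed the test for these genes. In limma's F test between the 5 series, with Benjamini-Hochberg adjustment over all 18749 genes, 0 of the 6 genes were called, at adjusted p from 0.59 for Glrb to 0.99 for Slc6a9, and 0 had an unadjusted p under 0.05, against 1.71% of all genes called. Series medians of Slc6a5 ran from 0.738 CPM in series B to 1.65 CPM in series E, and those of Slc6a9 from 59.3 CPM in C to 68.5 CPM in D, and in both the libraries of every series overlapped those of the others. Glra1 medians lay between 19.1 CPM in B and 22.8 CPM in D. Genes that did differ between series included all 5 erythroid and all 7 immediate early list genes tested.

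The receptor subunits fell into 2 patterns. Glra2, Glra3 and Glrb rose together across libraries, and Glra1 fell as they rose. Over the 49 libraries Glrb and Glra3 correlated at r = 0.79 (rho = 0.51), Glrb and Glra2 at r = 0.71 (rho = 0.45) and Glra2 and Glra3 at r = 0.64 (rho = 0.37). Glra1 correlated with Glrb at r = -0.62 (rho = -0.51), with Glra3 at r = -0.58 (rho = -0.50) and with Glra2 at r = -0.50 (rho = -0.33). Permutation tests (100000 permutations, two-sided) gave these 6 r values p from 1e-05, the smallest they can give, to 0.00035, and adjusted over all 15 pairs 3.75e-05 to 0.000875. In all, 9 of 15 pairs were called at adjusted p under 0.05. In limma, over 18748 genes, the slope of Glrb was -0.24 ± 0.04 log2 units (SE) for each SD of Glra1, at adjusted p = 2.54e-05, where 35.2% of all genes were called.

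The calls of the joint rise were lost without the 5 least correlated libraries, while those of Glra1 against Glrb and Glra3 held. Library 71 had the highest Glra1, at 46.6 CPM, with the lowest Glrb and Glra2, at 63.9 and 3.18 CPM. Library 45 had Glra1 at 39.04 CPM, Glrb at 79.4 CPM and the lowest Glra3, at 19.97 CPM. Library 62 had the highest Glra2 and Glra3, at 19.8 and 100.6 CPM, with Glrb at 258 CPM. In the 44 libraries without the 5, Glra1 and Glrb still correlated at r = -0.51 (permutation test, adjusted p = 0.00502) and Glra1 and Glra3 at r = -0.40 (adjusted p = 0.0334). The positive pairs did not pass: Glrb with Glra2 had r = 0.36 (permutation test, adjusted p = 0.0646), Glrb with Glra3 r = 0.32 (0.105) and Glra2 with Glra3 r = 0.21 (0.339). Within every series r of these pairs was above 0. In series B, of 7 libraries and none of the 5, it was 0.82, 0.84 and 0.86 in the same order. In series E and F it ran from 0.25 to 0.61. Glra1 with Glra2 also failed, at r = -0.25 (permutation test, adjusted p = 0.246).

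The ratio of Glra1 to Glrb counts, not adjusted for length, put the same contrast on 1 scale. It ran from 0.052 to 0.729 with a median of 0.101 over the 49 libraries, and its highest value was 0.207 in the 44. Within series, r of Glra1 and Glrb was -0.52 in B, -0.73 in C, -0.73 in D, -0.48 in E and -0.03 in F, so the opposition was not seen in series F, of 7 libraries. That of Glra1 and Glra3 was negative in all 5 series, from -0.46 in B to -0.78 in D. Leaving out any 1 of the 49 libraries kept r of Glra1 and Glrb between -0.66 and -0.50 and the pair called each time. Without the 2 libraries of most extreme Glra1, r of the pair was -0.38.

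**Figure D2:**
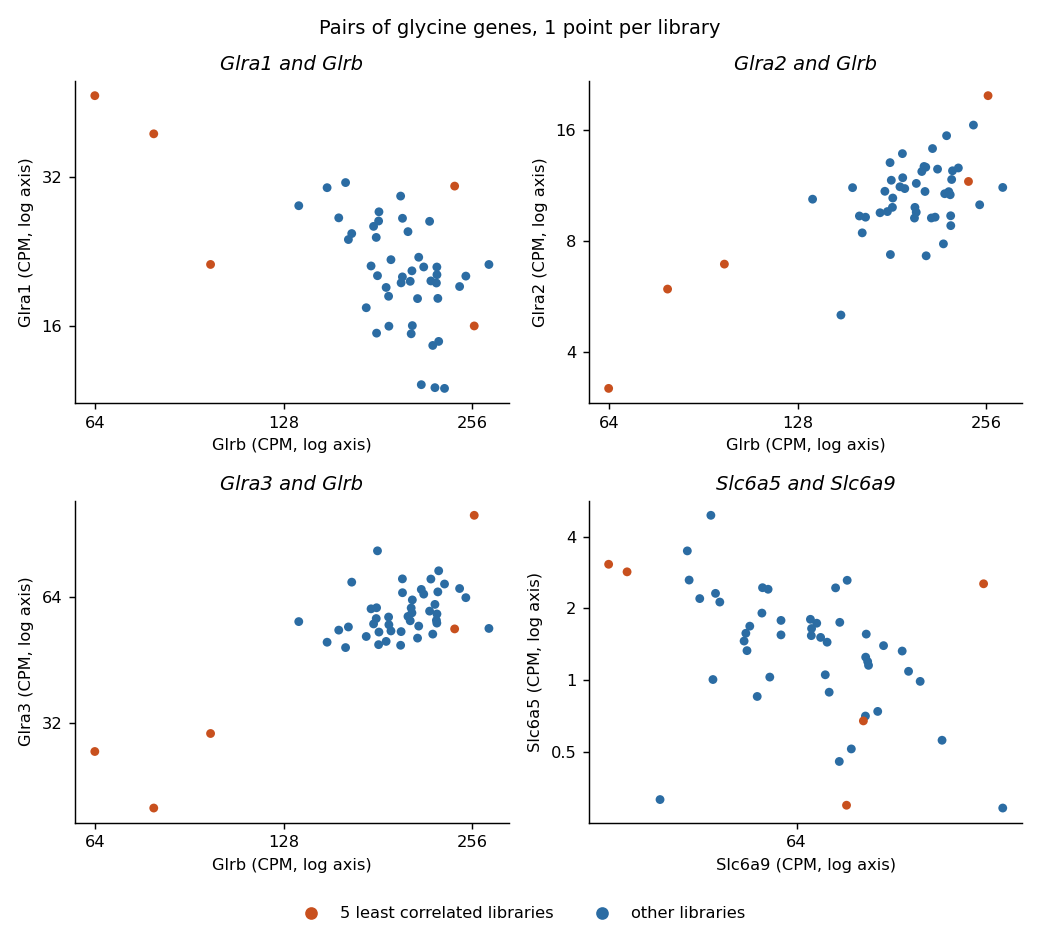
Levels of pairs of genes in CPM on log axes, 1 point for each of 49 libraries, with the 5 least correlated libraries in orange. Glra1 falls as Glrb rises at r = -0.62, while Glra2 and Glra3 rise with Glrb at r = 0.71 and 0.79, and 3 orange points are the lowest in Glrb, at 63.9 to 97.8 CPM; Slc6a5 falls as Slc6a9 rises at r = -0.49.

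The 2 transporters also ran against each other. Slc6a5 and Slc6a9 correlated at r = -0.49 (rho = -0.51, permutation test, adjusted p = 0.00101 over 15 pairs), and at r = -0.50 without the 5 libraries (permutation test, adjusted p = 0.00502). In limma the slope of Slc6a5 on Slc6a9 was -0.23 ± 0.06 (SE), at adjusted p = 0.00611 over 18748 genes, of which 15.2% were called. Set the other way, Slc6a9 on Slc6a5 had adjusted p = 0.0601 and was not called, where 0.421% of genes were. Within series r was -0.06 in B, -0.55 in C, -0.71 in D, -0.84 in E and 0.21 in F. Slc6a5 rested on 3 to 74 counts a library, which limits what any correlation with it can show. The ratio of Slc6a5 to Slc6a9 counts ran from 0.003 to 0.092, a 30.8-fold range.

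Slc6a9 correlated weakly with the receptor subunits. Its r was -0.39 with Glra3 (permutation test, adjusted p = 0.0109) and -0.35 with Glrb (0.0222), and both calls were lost when library 45, in which Slc6a9 stood at 93.5 CPM, was left out (adjusted p = 0.0884 and 0.113). The call with Glrb was also lost without library 44 (permutation test, adjusted p = 0.0506). By Spearman's rho neither pair passed. Slc6a5 was not called with any receptor subunit, its largest r being 0.28 with Glrb (permutation test, adjusted p = 0.0720).

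The 32 libraries left out for LOC120093067 and Zfp532, called feature-dominated here, allowed the same pairs to be computed in other libraries. Those 2 features held 19.8% to 56.02% of their counts, against at most 5.50% in the 49 ordinary libraries. They were shallower, at 2.29 to 13.7 M counts against 9.55 to 50.2 M. With totals that leave out the dominant features, Glra1 and Glrb correlated at r = -0.65 over these 32 libraries (permutation test, adjusted p = 0.00035) and Glra1 and Glra3 at r = -0.71 (0.00035). The positive pairs passed too: Glra3 and Glrb had r = 0.73, Glra2 and Glra3 r = 0.62 and Glra2 and Glrb r = 0.50. Libraries 7, 15, 41 and 56 had the highest Glra1 of the 32, at 62.4 to 81.9 CPM. Their Glra3 was the lowest, at 19.8 to 35.5 CPM, and their Glrb lay at 65.98 to 85.5 CPM. Library 50 alone had lower Glrb, at 46.3 CPM, with Glra1 at 25.7 CPM. No r was recomputed without these libraries, so their part in the r values was not tested. The transporters did not repeat, since Slc6a5 and Slc6a9 correlated positively over the 32 libraries, at r = 0.45 (permutation test, adjusted p = 0.024). Slc6a5 had a median of 3.5 counts a library there and none in 4 libraries.

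Levels in the 2 kinds of library are given as values with no test, since the kinds were drawn from the data. Median Glrb was 346 CPM in feature-dominated libraries and 206 CPM in ordinary ones, with the dominant features out of both totals. Median Slc6a9 was 106 CPM in feature-dominated and 68.4 CPM in ordinary libraries, and median Glra1 was 32.7 and 21.5 CPM in the same order. For Glra3 the medians were 75.4 CPM in feature-dominated and 58.5 CPM in ordinary libraries, for Glra2 11.5 and 11.02 CPM, and for Slc6a5 1.03 and 1.56 CPM. The median difference of all 18948 genes was -0.29 log2 units, feature-dominated minus ordinary. The 6 genes ran from -0.33 for Slc6a5 to 0.75 for Glrb. By definition as many of all genes lie above that median as below it. The part of depth in these differences was not tested. Ranges of all 6 genes overlapped between the kinds.

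**Figure D3:**
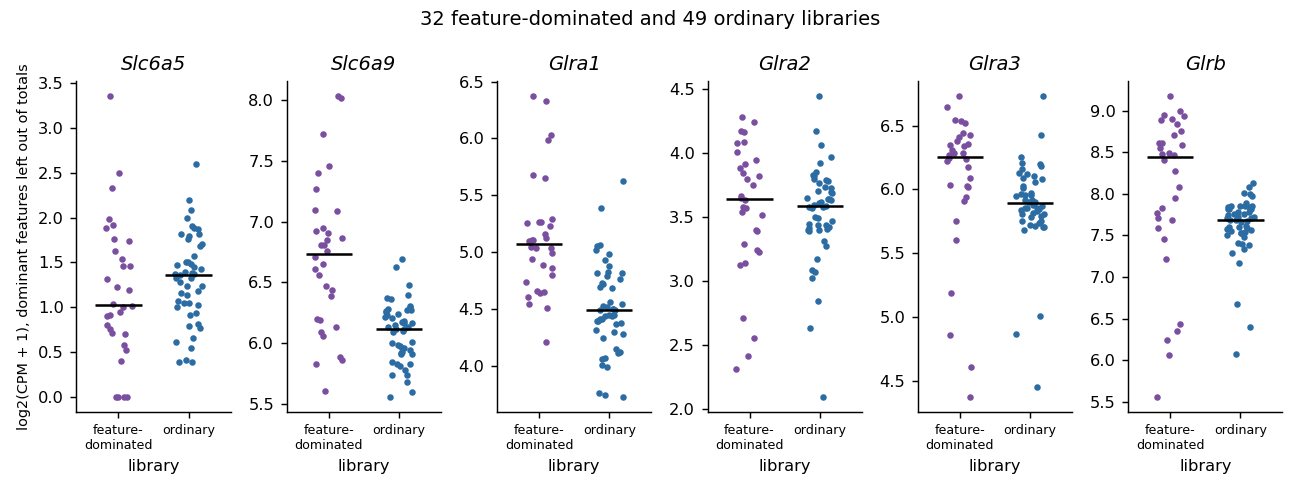
Level of each gene as log2(CPM + 1), with totals that leave out the dominant features, in 32 feature-dominated libraries (left in each panel) and 49 ordinary libraries (right); each point is 1 library and bars are medians, and vertical axes do not start at 0. Median Glrb is 0.75 log2 units and median Slc6a9 0.62 log2 units higher in feature-dominated libraries, with overlapping ranges.

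The genes were next set against scores of marker lists, each the mean z-scored log2 level of the list's genes past the filter, to see which cells and pathways they varied with. In bulk tissue, fewer cells of a type and less RNA per cell cannot be told apart. Glrb rose most with the GABA-A receptor score, by 0.31 ± 0.03 log2 units for each SD (limma, adjusted p = 6.29e-10), a score with which 22.3% of all genes were called. Without the 5 libraries the slope was 0.14 (limma, adjusted p = 0.000133). Glra1 had the opposite sign, at -0.17 ± 0.05 (limma, adjusted p = 0.00632), a call lost without the 5 libraries. Of 20 lists scored and 6 genes, 26 combinations were called over the 49 libraries and 14 over the 44, with 11 in both.

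Glra1 and Glrb were both called with and without the 5 libraries on 2 scores, with opposite signs. With the NMDA receptor score Glra1 rose by 0.24 ± 0.04 and Glrb fell by 0.20 ± 0.05 log2 units (limma, adjusted p = 9.87e-05 and 0.000809; 31.5% of genes called), and without the 5 libraries the slopes were 0.20 for Glra1 and -0.10 for Glrb (adjusted p = 0.000453 and 0.00446). With the score of glycine handling genes, which cover vesicle loading, cleavage and serine synthesis, Glra1 fell by 0.20 and Glrb rose by 0.18 (limma, adjusted p = 0.000649 and 0.00194; 43.1% called), against slopes of -0.14 for Glra1 and 0.08 for Glrb without the 5 (adjusted p = 0.0133 and 0.0277). Glra1 also fell by 0.24 with the astrocyte score and by 0.18 with the microglia score (limma, adjusted p = 5.87e-05 and 0.0302; 31.7% and 3.21% called). All Glra2 and Glra3 calls, on scores of NMDA receptor, GABA neuron, GABA-A receptor and astrocyte genes among others, were lost without the 5 libraries, as were those of Glra1 and Glrb on the GABA neuron score and of Glrb on the astrocyte and chloride transport scores (18.5%, 31.7% and 4.4% of genes called). Glrb gained a call on the immediate early score, with a slope of 0.09 over the 44 libraries (limma, adjusted p = 0.0244), against an adjusted p of 0.070 over the 49, where 13.1% of genes were called.

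The transporters followed glial and axonal lists. Slc6a9 rose by 0.15 ± 0.03 with the oligodendrocyte score and by 0.11 ± 0.03 with the microglia score (limma, adjusted p = 0.000552 and 0.0361; 13.5% and 3.21% of genes called). Slc6a5 fell by 0.18 ± 0.06 with the oligodendrocyte score and rose by 0.19 ± 0.06 with the neurofilament score (limma, adjusted p = 0.0435 and 0.0382; 13.2% of genes called with neurofilament). These 4 calls held without the 5 libraries. All but that of Slc6a9 on the oligodendrocyte score were lost in at least 1 of the other settings described below. Slc6a9, known mainly from glia, had a slope of 0.05 on the astrocyte score over the 49 libraries (limma, adjusted p = 0.314) and was called over the 44, at 0.12 ± 0.03 (adjusted p = 0.00202). It was likewise called over the 44 alone on the glycine handling score, at 0.08 (limma, adjusted p = 0.0385, against 0.131 over the 49). No member was called on the RMTg inhibitory score, on which limma called 0 genes of 18739 (1882 at an unadjusted p under 0.05), nor on the hindbrain position, dopaminergic, serotonergic or inhibitory postsynapse scores, with which 1.64%, 2.67%, 0.00534% and 0.64% of genes were called.

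**Figure D4:**
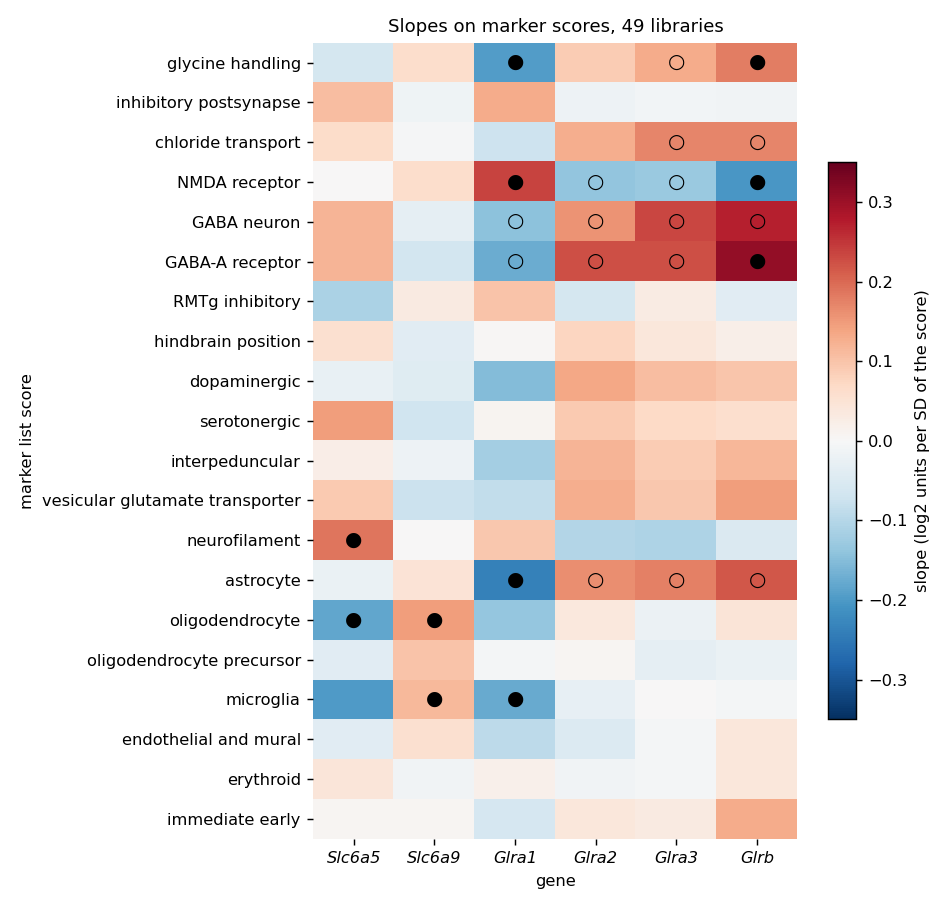
Slope of each gene (columns) on each of 20 marker list scores (rows), in log2 units per SD of the score over 49 libraries; circles mark adjusted p under 0.05, filled where the call also held, with the same sign, without the 5 least correlated libraries. Filled circles for Glra1 and Glrb carry opposite signs on the glycine handling and NMDA receptor scores, and Glra2 and Glra3 have open circles only.

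Taken gene by gene, Glrb was followed by 6796 of 18748 genes (36.2%; 19.1% rising and 17.1% falling), and 5970 were called without the 5 libraries. Of 13 GABA-A receptor subunit genes tested, 10 rose with Glrb and 1 fell, with a median slope of 0.14 against -0.01 over all genes; without the 5 libraries the counts were 6 and 1 and the median slope 0.06. Gabrg1, a gamma subunit, rose by 0.32. Gabrb1, a beta subunit, was the one that fell, by 0.23 (limma, adjusted p = 0.00425).

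Among 9 genes of the inhibitory postsynapse, which holds the glycine receptor, slopes on its beta subunit ran from -0.10 to 0.10. Gphn, which encodes gephyrin, had a slope on Glrb of 0.09 ± 0.03 (limma, adjusted p = 0.0104), and without the 2 libraries of most extreme Glrb the slope was -0.01. Of the 9, 3 rose and 2 fell, against 2 and 1 without the 5 libraries. Nlgn2, the neuroligin of inhibitory synapses, was among those that fell, at -0.10. Of 5 GABA neuron genes 2 rose with Glrb and 0 fell. Gad1, which makes GABA, was among the risers, at 0.19 (limma, adjusted p = 4.66e-08). Gad2 was not called, with a slope of 0.03 (limma, adjusted p = 0.68). Of 11 glycine handling genes 3 rose, which were Gcsh and Dld of the glycine cleavage system and Psat1 of serine synthesis, and Dld had the steepest slope of these, at 0.29. Of 7 NMDA receptor genes, 0 rose and 3 fell, which were Grin2b, Grin2c and Grin2d.

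The genes most like Glrb across libraries, with the same sign of r in every series, were Tmem30a (r = 0.95), a subunit of lipid flippases, Serinc1 (0.95), Pip4p2 (0.94) and Yme1l1 (0.94), a protease of the mitochondrial inner membrane. The most opposed were Hmg20b (-0.85), Cep164 (-0.84), a centriole protein, and Srrm2 (-0.79), a splicing factor. These 7 kept their call without the 5 libraries. Immediate early genes, which differed between series, also rose with Glrb: 4 of 7 over the 49 libraries and 7 of 7 over the 44, with Fos at 0.64 and 0.83 log2 units.

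Among markers of other cells, 4 of 8 astrocyte genes rose with Glrb and 0 fell, with and without the 5 libraries. Aqp4, the water channel of astrocytes, rose by 0.24 ± 0.05 over the 49 and by 0.14 over the 44 (limma, adjusted p = 4.83e-05 and 0.00661), and Gja1, the astrocyte connexin, by 0.21 ± 0.03 and 0.11 (5.98e-07 and 0.00643). Of 11 dopaminergic genes 5 rose and 1 fell, against 1 and 0 without the 5 libraries.

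Glra1 was followed by 6601 genes (35.2%; 15.3% rising and 19.9% falling), and by 4928 without the 5 libraries. Slc32a1, the vesicular transporter that loads both GABA and glycine, rose with Glra1 by 0.21 ± 0.04 (limma, adjusted p = 0.000164) and by 0.23 without the 5 libraries, and was the 1 riser among 11 glycine handling genes, of which 5 fell. Nlgn2 rose by 0.16 (limma, adjusted p = 4.52e-06) while Gphn fell by 0.10, a call for Gphn that was lost without the 5 libraries. Of 5 neurofilament genes 3 rose with Glra1 and 0 fell, Nefm most, by 0.23. Glra1 was not called on the whole neurofilament score (limma, adjusted p = 0.22). Of 7 NMDA receptor genes 2 rose and 0 fell, Grin2b most, by 0.21. Of 13 GABA-A receptor genes, 2 rose and 6 fell, with Gabrb1 at 0.25 and Gabrg1 at -0.29, the reverse of their slopes on Glrb.

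Some markers of other cells fell with Glra1, against 19.9% of all genes falling. Of 8 astrocyte markers 6 fell and 0 rose, with and without the 5 libraries, Gfap, the astrocyte filament gene, by 0.27 (limma, adjusted p = 0.000779). Of 8 microglial markers 5 fell, and 3 without the 5 libraries. Of 11 dopaminergic genes 6 fell, and 4 without the 5 libraries: Slc6a3, the dopamine transporter, by 0.65 ± 0.12 (limma, adjusted p = 4.15e-05) and Th by 0.39 ± 0.12 (0.00696), although the slope of Glra1 on the whole dopaminergic score was not called. In the other marker lists 2 of 5 interpeduncular, 1 of 2 cerebellar, 2 of 8 oligodendrocyte, 1 of 4 oligodendrocyte precursor, 1 of 5 serotonergic, 0 of 7 endothelial and mural, 0 of 5 erythroid and 0 of 2 choroid plexus and ependymal genes fell. The part of dissection in these slopes was not tested. The genes most like Glra1 were Zbtb7a (r = 0.83), a transcriptional repressor, Twnk (0.79), the mitochondrial DNA helicase, Pacsin1, Ahdc1 and Pde4a (each 0.75), and the most opposed Uso1 (-0.79), Rbbp7 (-0.78) and Snx7 (-0.77).

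Slc6a9 was followed by 2855 genes (15.2%; 11.1% rising and 4.14% falling), and by 1238 without the 5 libraries. Of 8 oligodendrocyte markers 3 rose, Mag, a glycoprotein of myelin, by 0.25 ± 0.04 and Cnp by 0.19 ± 0.04 (limma, adjusted p = 0.00014 and 0.000688), and both stayed called without the 5. Of 8 microglial markers 4 rose, Csf1r by 0.17. Slc6a11, the glial GABA transporter, rose by 0.20. Of the glycine handling genes, Phgdh and Shmt1, enzymes that make serine and convert it to glycine, rose by 0.15 and 0.17, the amino acid exchanger Slc7a10 rose by 0.09, and Slc32a1 fell by 0.13 (limma, adjusted p = 0.0470); the calls of Shmt1 and Slc32a1 were lost without the 5 libraries. Its closest genes were Gal3st1 (r = 0.77), which makes the myelin lipid sulfatide, Paqr6 (0.77), Gjb1 (0.73), a connexin of myelinating cells, Mvk (0.72) and Josd2 (0.71), and its most opposed Hsp90aa1 (-0.73), Nwd2 (-0.65) and St13 (-0.64).

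Slc6a5 was followed by 79 genes (0.421%), and by 2 without the 5 libraries, which were Adam23 (r = 0.64 over the 49) and Cacna2d1 (r = 0.60), a subunit of voltage-gated calcium channels. Other genes named by likeness over the 49 libraries were Hsp90aa1 (0.59), Esrrg (0.58) and Epha4 (0.58), with Gjb1 (-0.61), Klk6 (-0.59), an oligodendrocyte protease, and Mpg (-0.59) opposed. Of the marker list genes 1 was called, the microglial C1qb, which fell by 0.16 (limma, adjusted p = 0.0335). Slc32a1, its partner in glycinergic terminals, had a slope of 0.09 ± 0.05 (limma, adjusted p = 0.392).

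Glra2 and Glra3 were followed by 2712 genes (14.5%) and 3758 genes (20%) over the 49 libraries, and by 0 each in limma without the 5, with 1241 and 1327 genes at an unadjusted p under 0.05. For either subunit 8 of 13 GABA-A receptor genes rose and 0 fell over the 49. The genes most like Glra3 were Fam169a (r = 0.84), Lnpk (0.82) and Fstl5 (0.82), and most like Glra2 Klhl7 (0.77) and Snx16 (0.75), and Hmg20b was the most opposed to Glra3 (-0.70) and Dda1 to Glra2 (-0.65).

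Of 24 relations with technical measures, 4 passed. Glra1 rose with the share of LOC120093067 and Zfp532 in the ordinary libraries (r = 0.56, rho = 0.61, permutation test, adjusted p = 0.00024), with r from 0.05 in series E to 0.86 in series F. The first principal component of all genes, with 16.96% of the variance, correlated with Glra1 at -0.68, with Glrb at 0.64 and with Glra3 at 0.42 (permutation test, adjusted p = 0.00012, 0.00012 and 0.0126). Without the 2 libraries of most extreme component score these were -0.60, 0.54 and 0.15. Within series B they were -0.13, -0.47 and -0.36, so the sign turned there for Glrb and Glra3. In series C to F the r of Glra1 ran from -0.84 to -0.75, that of Glrb from 0.39 to 0.72 and that of Glra3 from 0.42 to 0.73. Slc6a9 had r = 0.35 with the log10 library total (permutation test, adjusted p = 0.052). The part of these measures in the slopes above was not tested, beyond the fits with library total as a covariate.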

How the data were processed

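The authors' deposited table holds 1 log2 value per gene and library. The submitters' processing notes name kallisto 0.48, a tool that estimates counts per transcript, and the read layout, strand, transcript set and build are not given in the sources used here. Judged by the values themselves, an entry is the log2 of 1 plus an estimated count, since after reversing the log 49.8% of the low values (under 20, zeros left out) lay within 0.01 of a whole number. Reads shared between paralogous subunits could have been split between them, and reads of a gene and an antisense partner cannot be told apart. No pair of used libraries agreed within counting noise.

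Values were back-transformed, divided by the library total to CPM and taken as log2(CPM + 1). Genes at 1 or more in at least 20% of libraries were kept (18749). Slopes and series were fitted with limma 3.58.1 (mean trend) in R 4.3.3 on all kept genes, with Benjamini-Hochberg adjustment and a threshold of 0.05. A slope is the change in log2 units for 1 SD of the score or gene. Correlations across libraries used log2(CPM + 1). The remaining steps ran in Python 3.11.15 with scipy 1.17.1. Identifiers more than 50000 apart start a new series. Named genes are the members, the list genes, and for each member the 5 of highest and 3 of lowest r with 1 sign in every series, symbols starting LOC, RGD, AABR or ENSRNOG passed over. Some genes that this rule picks are not reported here. The fits were tested on simulated data. The members, lists and rules were chosen with earlier results of these data known. Labels of 2 libraries note a corrected identifier. P-values measure the spread between these samples. The 11 libraries dominated by Nif3l1 were not used.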

Additional observations from a re-analysis of the deposited data

Results flagged for a closer look

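Each of the 6 genes was tested in the series of 7 libraries (B, E and F) for a library far from the others, 18 tests in all, of which 0 passed. Series C and D, of 16 and 12 libraries, were larger than the rule covers and were not tested. They hold all of the least correlated libraries.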

How the results depend on the processing

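No paired analysis was possible because all samples belong to 1 group. Over all 92 libraries, where totals are set by the dominant features, 4 members differed between series, 114 score slopes were called in place of 26, all 15 pairs were called in place of 9, and 17656, 18691, 18626, 18438, 18638 and 18677 genes followed Slc6a5, Slc6a9, Glra1, Glra2, Glra3 and Glrb. The signs turned there for the r of Slc6a9 with Slc6a5 (0.58), Glra3 (0.92) and Glrb (0.90) and of Glra1 with Glra2 (0.82), Glra3 (0.86) and Glrb (0.85). They turned for the slopes of Glra1 on the scores of glycine handling (1.18), GABA neuron (1.32), GABA-A receptor (1.27), astrocyte (1.31) and microglia (1.23), of Glrb, Glra3 and Glra2 on NMDA receptor (1.797, 1.45 and 0.98) and of Slc6a5 on oligodendrocyte (0.39). They turned for slopes on Slc6a5 of Klk6 (1.57), Mpg (0.66), Gjb1 (1.31) and C1qb (1.27), on Slc6a9 of Hsp90aa1 (2.04), St13 (1.9997), Nwd2 (0.79) and Slc32a1 (1.35), on Glra1 of Uso1 (1.53), Pacsin1 (-0.32), Rbbp7 (1.79), Dld (1.78), Gphn (1.48), Gfap (1.70), Gabrg1 (1.002), Slc6a3 (1.21), Th (2.03), Gad1 (1.85) and Shmt1 (0.39), on Glra2 of Cuedc1 (1.49), Dda1 (1.69) and Tcf25 (2.05), on Glra3 of Cercam (1.73), Hmg20b (1.06) and Rp9 (1.33), and on Glrb of Hmg20b (0.95), Cep164 (1.24), Srrm2 (2.0002), Nlgn2 (1.35), Grin2c (0.77) and Gabrb1 (1.42).

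Without the 5 least correlated libraries 14 score slopes, 3 pairs and 2, 1238, 0 and 0 genes following Slc6a5, Slc6a9, Glra2 and Glra3 were called, and the slope of Glrb on chloride transport was -0.026. Leaving out the 2 libraries of most extreme score or gene level, 17 score slopes were called, with 2, 713, 4132, 1709 and 2263 genes following Slc6a5, Slc6a9, Glra1, Glra2 and Glra3, and Gphn on Glrb was -0.0071. In the 32 feature-dominated libraries, chosen after seeing the data, r of Slc6a5 and Slc6a9 was 0.45 and that of Slc6a9 and Glra3 0.20. Genes following Slc6a5 numbered 45 with a pseudocount of 0.5, 24 without the filter, 320 with median-of-ratios size factors (1400 for Slc6a9), 141 with series, 15 with library total and 293 with Xist and Ddx3y as covariates, against 79. Leaving out each library in turn, also chosen after seeing the data, 8 to 10 of 15 pairs were called. With the other pseudocount, size factors, totals without the dominant features, and series, library total or Xist and Ddx3y as covariates, all 9 called pairs stayed called with 1 sign, as did 75 to 82 of the 82 slopes of named genes. Fewer of the 82 stayed called when libraries were left out: 52 without the 5 least correlated, and 63 without the 2 of most extreme gene level. Without those 2, 7 of the 9 pairs stayed called. Of the 26 called score slopes, 25 stayed called with the pseudocount, 23 with totals without the dominant features and with Xist and Ddx3y, 22 with size factors and with series, 21 with library total and 18 without the filter on low values. The lost ones came from 8: Glra1 on GABA neuron and microglia, Slc6a9 on microglia, Slc6a5 on oligodendrocyte and neurofilament, Glra2 and Glra3 on NMDA receptor and Glrb on chloride transport. The cause of each change was not tested. Slc6a5 rested on 3 to 74 counts a library.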

Other observations

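Glra4, a further alpha subunit gene outside the 6, was low in these libraries, at 0.16 to 3.02 CPM with a median of 0.999, and was above 0 in all 49.

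In the 11 libraries dominated by Nif3l1, Slc6a5 was at 0 in 10, Glra2 in 5, Glra1 in 4, Slc6a9 and Glra3 in 2 each and Glrb in 1. These libraries held 1.72 to 8.43 M counts, and their median counts ran from 0 for Slc6a5 to 6 for Glrb.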
